A study of Homo sapiens with 8 samples.

Results

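Collagens and laminins are the chains from which the fibrils and basement membranes of animal tissues are assembled. The 56 genes described here are all those, among 38592 genes in the deposited tables, whose symbol was COL, a number, A and a number, or LAMA, LAMB or LAMC followed by a digit. They comprised 11 chains of fibrillar collagens, 6 chains of collagen IV, 12 laminin chains, 10 FACIT chains (fibril-associated collagens with interrupted triple helices) and 17 other collagen chains. Of these, 53 passed the filter on low counts and were tested, and COL5A3, COL10A1 and COL20A1 did not pass it. The rule is one on names and uses no measured value.

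RNA was measured in bulk in islet-like cells that were differentiated in culture from H1, a human embryonic stem cell line in wide use. The parental cells were wild type (WT) or had a knockout (KO) of a gene for 1 of 3 factors, namely ISL1, PAX6 or PDX1, which are homeodomain transcription factors of the developing islet. On day 11 of differentiation all of them were transduced, either with ISL1-IRES2-BFP, a vector for ISL1 and blue fluorescent protein (labelled ISL1 OE), or with the fluorescent protein alone (BFP), and all were harvested on day 18. The 21 libraries formed 8 groups of biological replicates, 1 for each genotype and vector. WT had 2 libraries with either vector, ISL1 KO and PAX6 KO had 3 with either, and PDX1 KO had 3 with BFP and 2 with ISL1 OE. The sources used here do not give the promoter of the vector, the share of cells it reached or the number of knockout clones.

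A collagen molecule is a triple helix of chains that is hydroxylated and folded in the endoplasmic reticulum, and, for the fibrillar types, trimmed outside the cell before it assembles. Fibrillar collagens form cable-like fibrils and FACIT chains sit on the surface of such fibrils. Collagen IV and laminins form the sheet-like networks of basement membranes, where a laminin is a cross-shaped trimer of an alpha, a beta and a gamma chain. In the pancreas the epithelium, the vessels and the islets are bordered by basement membranes, and interstitial fibrils are made mainly by mesenchymal cells.

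Levels are given in TPM (transcripts in proportion to all transcripts of a library), which is scaled for gene length. Fold changes are on the log2 scale from the estimated counts, with the SE of the fit, and a gene was called where the Benjamini-Hochberg adjusted p of edgeR's quasi-likelihood test over all 22184 tested genes was under 0.05. Library totals ran from 40959445 to 66818593 counts, and CHGA, a granule protein of endocrine cells, was high in every library, up to 37607 TPM. Among the altered genes, ISL1 was at 46.4 to 53.3 TPM in ISL1 KO BFP against 176 to 283 TPM in WT BFP. PAX6 in PAX6 KO BFP (95.6 to 151 TPM, WT BFP 119.1 to 192) and PDX1 in PDX1 KO BFP (62.3 to 70.3 TPM, WT BFP 41.4 to 50.5) were not low, so transcript levels did not check those labels. ISL1 was not above its BFP group in the libraries labelled ISL1 OE, at 202 to 221 TPM in WT and 47.3 to 64.6 TPM in ISL1 KO, so the vector's own transcript did not check that label in gene-level values, and every direction given below for the vector rests on the label.

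Members stood apart in 2 libraries. Their summed level was 598 to 2122 TPM in 19 libraries, but 246 TPM in PAX6 KO ISL1 OE replicate 3 and 362 TPM in PDX1 KO ISL1 OE replicate 4. In the former, 49 of 53 tested members were below both other libraries of the group and 0 were above. In the latter, 46 of 53 were below the other library of the group, while COL6A3, COL6A5, COL6A6, COL24A1, COL28A1, LAMA3 and LAMA4 were above it. These counts are of TPM, and the like share of all genes was not counted. Over all tested genes, the lowest correlation between libraries of a group was 0.927 in PAX6 KO ISL1 OE and 0.9 in PDX1 KO ISL1 OE. It was 0.982 to 0.987 in the other groups. Whether these gaps are particular to the members was not tested. Of all counts, members took 0.172% to 0.596% in 19 libraries and 0.0638% and 0.0923% in these 2. Counts of calls and many single values are therefore also given from a fit of the other 19 libraries. Since the 2 libraries were picked out by the members' own values, that fit is no independent check on calls of members. In that fit the common dispersion (the squared biological variation) was 0.0344 in place of 0.114, and PDX1 KO ISL1 OE was replicate 2 alone, assumed to vary like the other groups. The scales also differed between libraries: over the 25 members above 0.5 TPM in every library, the ratio of CPM (counts scaled by TMM) to TPM lay 0.27 and 0.35 above the median library on the log2 scale in WT BFP replicates 1 and 3, and 0.88 above it in PDX1 KO ISL1 OE replicate 4. Whether groups overlap is read in TPM below, and CPM is given where it differs.

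A few chains held most of the signal. The 10 genes with the highest mean level made up 82.4% of the summed mean TPM of the 56 genes, the 19 at a mean of at least 10 TPM made up 94.5%, and the 16 under 1 TPM made up 0.288%. COL2A1, the chain of collagen II that forms the fibrils of cartilage and is also made in several embryonic epithelia, was the highest and held 32.0% on its own. LAMB1, LAMA1 and LAMC1, which can join into the laminin of early embryonic basement membranes, led the laminins, and COL26A1 and COL18A1 led the remaining chains. COL18A1 encodes collagen XVIII, a basement membrane collagen that carries heparan sulfate chains. In bulk RNA such levels cannot tell fewer cells of a type from less RNA per cell.

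**Figure D1:**
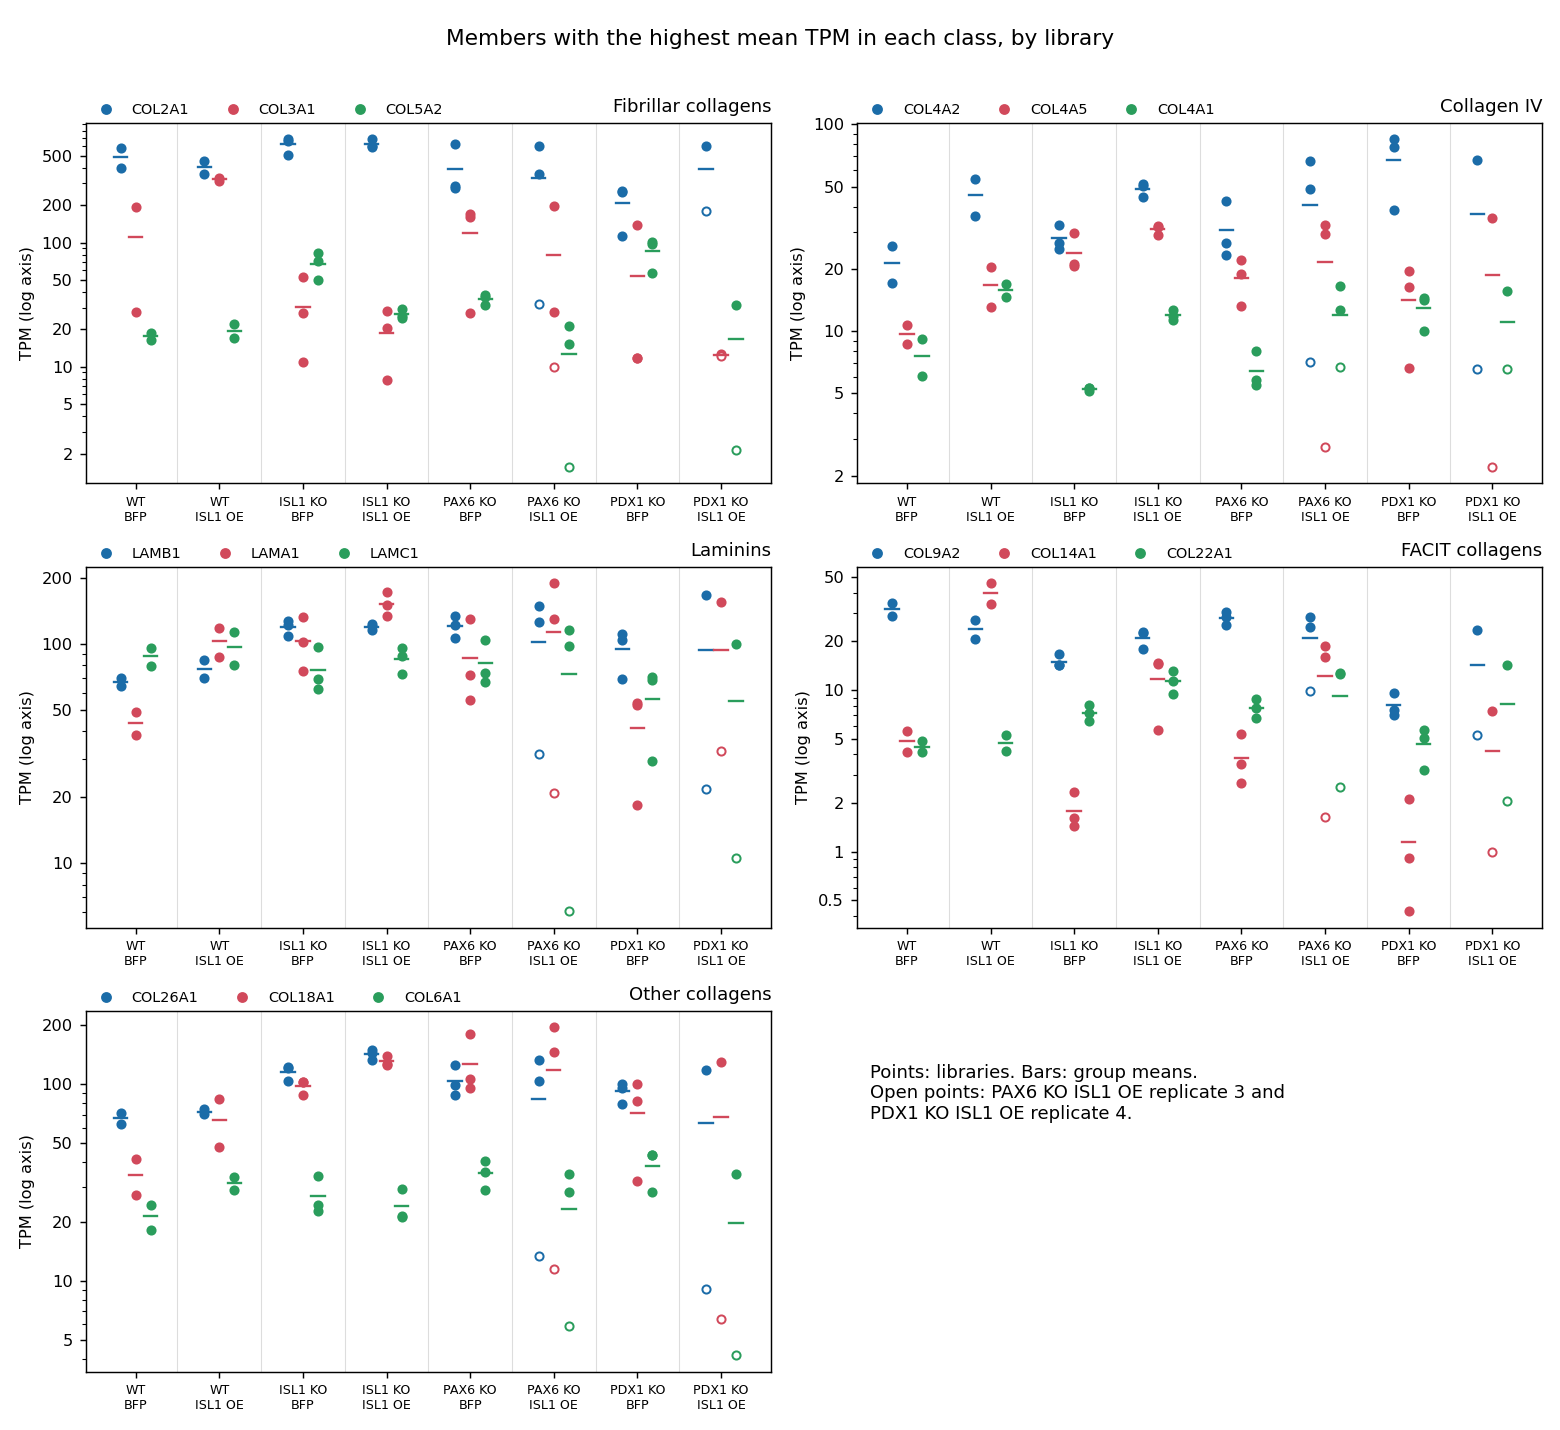
Levels of the 3 members with the highest mean in each class, in TPM on a log axis, with a point for each library by group, a colour for each gene, bars at group means and open points for the 2 libraries that stood apart. COL2A1, with 32.0% of the summed mean level, is the highest member in all 21 libraries, and the open points are the lowest of their group for each gene drawn.

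Knockouts were first compared with WT among BFP libraries. In ISL1 KO, 3 of 53 members were called higher and 4 lower, beside 2.05% and 4.48% of all tested genes, and the members' median log2 fold change was -0.02 against 0.03 over all genes. In PAX6 KO, 3 were higher and 2 lower, beside 2.41% and 4.25%, and the median was 0.28 against 0.00. In PDX1 KO, 1 was higher and 7 lower, beside 4.56% and 6.84%, and the median was -0.45 against 0.02. These 3 comparisons share the 2 WT BFP libraries. The 7 endocrine markers listed summed to 16504 to 19441 TPM in WT BFP, 21527 to 30432 in ISL1 KO BFP, 16376 to 24712 in PAX6 KO BFP and 40499.6 to 42454 in PDX1 KO BFP; their part in the members' values was not tested. Among the calls, COL13A1 was higher and COL25A1 lower in all 3 knockouts. The calls moved with the libraries included: the 19-library fit called 14 higher and 12 lower in ISL1 KO (13.3% and 15.1% of all genes), 13 and 6 in PAX6 KO (13.9% and 14.9%), and 5 and 14 in PDX1 KO (15.8% and 17.5%). A fit with the replicate number as a block in the genotypes ISL1 KO and PAX6 KO called 1 higher and 2 lower in ISL1 KO, and 2 higher and 1 lower in PAX6 KO. Of all 22184 genes, it called 152 higher and 368 lower in ISL1 KO, and 200 and 269 in PAX6 KO. The calls it ended were those of COL13A1, COL25A1, LAMA2 and LAMB3 in ISL1 KO (adjusted p = 0.0827, 0.0848, 0.3 and 0.0867) and of COL19A1 and COL23A1 in PAX6 KO (0.161 and 0.0968). That block has no term in WT or PDX1 KO. Between genotypes it reads ISL1 KO and PAX6 KO at the level fitted for replicate 1, against the mean of WT or PDX1 KO. Its between-genotype calls are therefore no check of pairing.

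**Figure D2:**
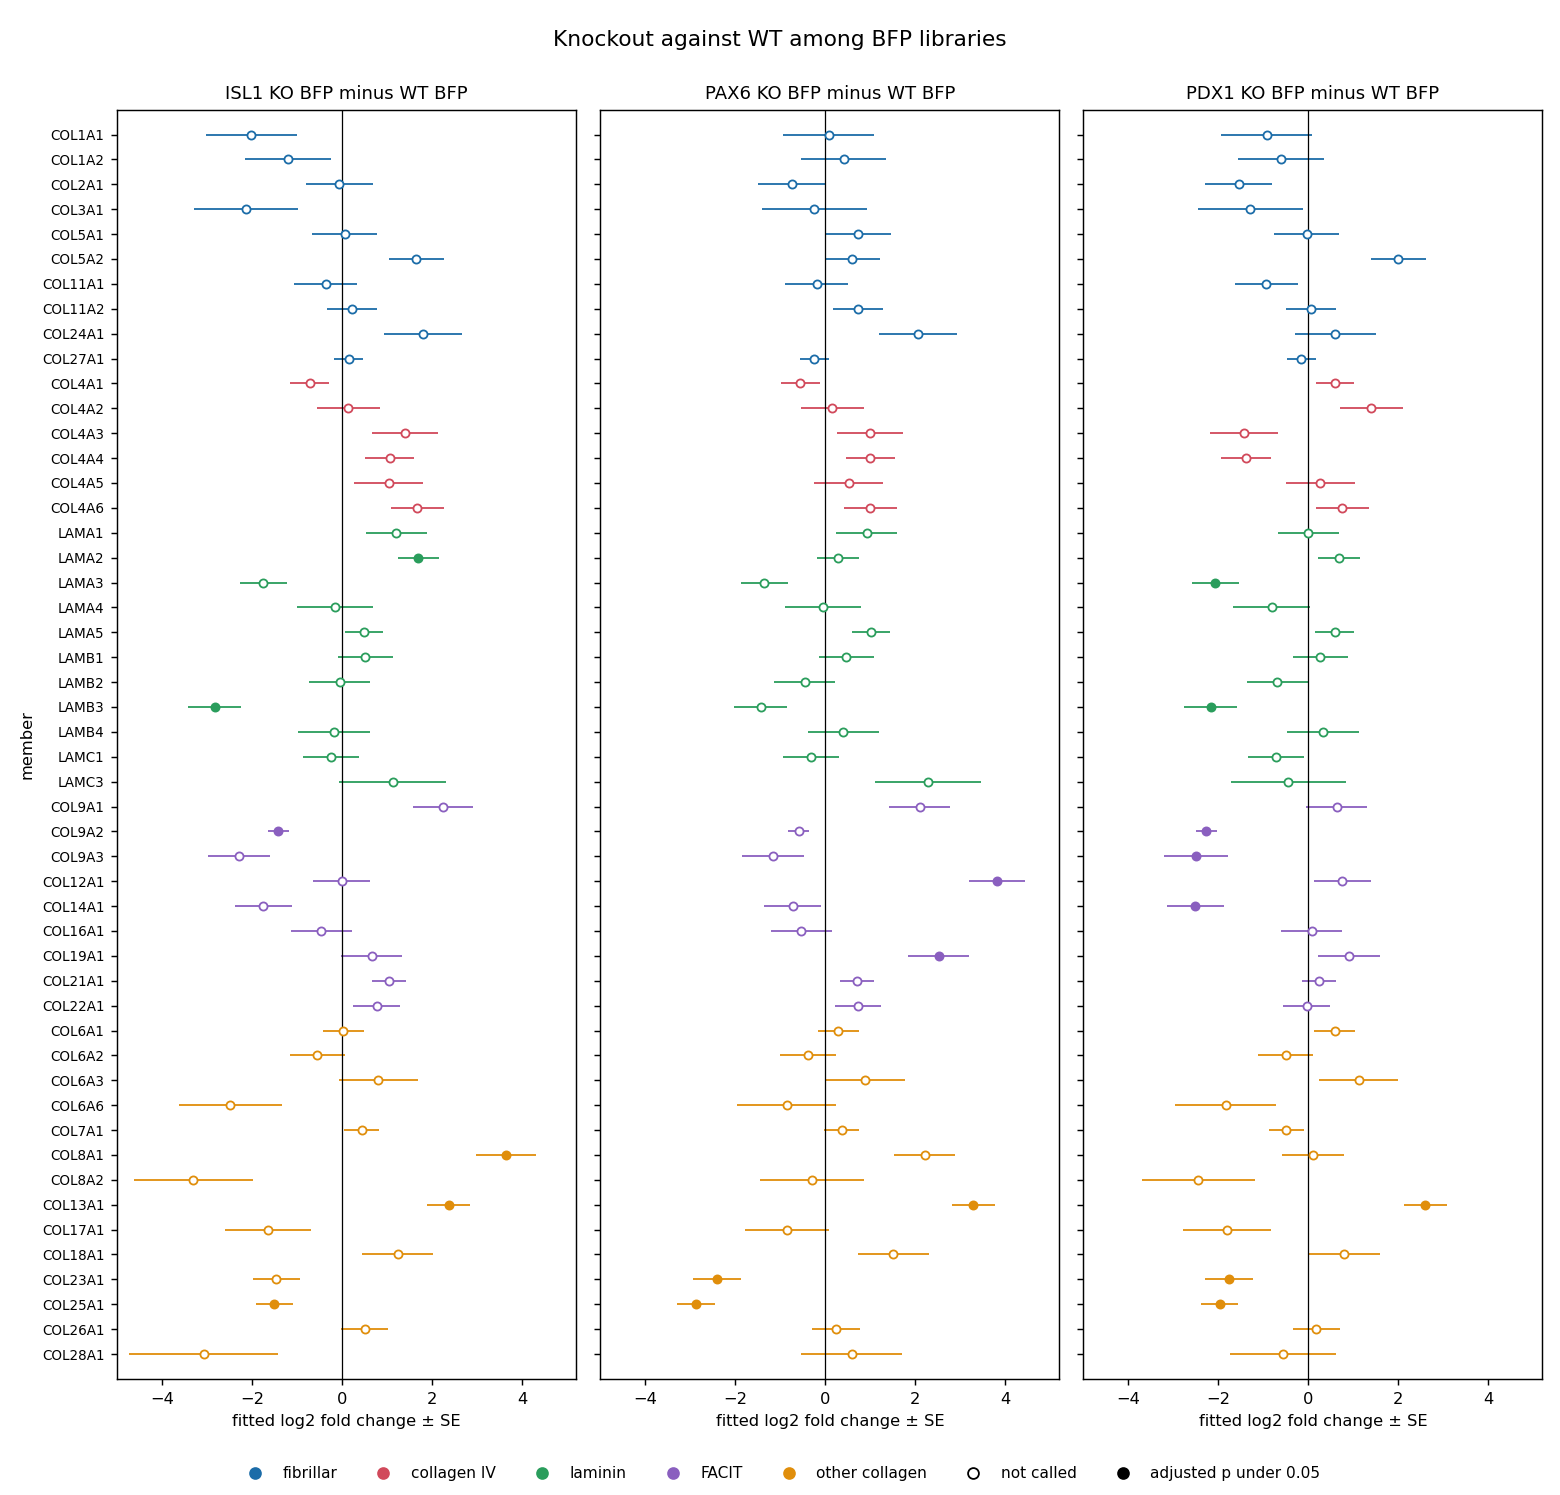
Log2 fold change of each knockout against WT among BFP libraries for 50 members, ordered and coloured by class, with bars of 1 SE and filled points for calls at an adjusted p under 0.05; COL6A5 and COL15A1, each at 0 counts in a whole group, are among those not drawn. COL13A1 lies to the right and COL25A1 to the left of 0 in all 3 knockouts, and COL12A1 lies far to the right in PAX6 KO, where alone it was called.

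Fibrillar chains were not called in any knockout by edgeR with all libraries. Against WT, 0 of 10 tested fibrillar members passed the edgeR test in each of the 3 comparisons, and the class medians were -0.01, 0.24 and -0.38 on the log2 scale for ISL1 KO, PAX6 KO and PDX1 KO. COL2A1 (chromosome 12, 47972965 to 48004554, GRCh38) was at 575 and 403 TPM in WT BFP, 665, 685 and 509.7 TPM in ISL1 KO BFP, 278, 619 and 284 TPM in PAX6 KO BFP and 259, 113.1 and 258 TPM in PDX1 KO BFP. All 3 PDX1 KO libraries were below both WT libraries, with a log2 fold change of -1.55 ± 0.75 and an adjusted p of 0.207, which was 0.00171 in the 19-library fit.

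COL5A2, a collagen V chain that is built into collagen I fibrils and limits their width, showed a similar gap in the other direction. Its level was 18.9 and 16.3 TPM in WT BFP, 49.7, 71.2 and 82.5 TPM in ISL1 KO BFP, 38.0, 31.2 and 36.7 TPM in PAX6 KO BFP and 98.1, 56.5 and 102 TPM in PDX1 KO BFP. Every knockout library was above both WT libraries. The log2 fold change was 1.65 ± 0.61 in ISL1 KO (adjusted p = 0.147) and 1.998 ± 0.61 in PDX1 KO (adjusted p = 0.0595). Neither was called by edgeR with all 21 libraries, DESeq2 called the PDX1 KO difference (adjusted p = 0.00969, and 0.0544 in ISL1 KO), and the edgeR adjusted p was 7.91e-05 and 9.33e-06 in the 19-library fit.

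COL1A1, COL1A2 and COL3A1, the chains of the interstitial collagens I and III, varied widely between replicates of a genotype. COL1A1 was at 28.1 and 6.06 TPM in WT BFP, 4.496, 4.89 and 9.88 TPM in ISL1 KO BFP, 8.47, 39.8 and 27.7 TPM in PAX6 KO BFP and 29.2, 3.42 and 5.55 TPM in PDX1 KO BFP. COL3A1 was at 194 and 27.7 TPM in WT BFP, 11.0, 27.0 and 53.1 TPM in ISL1 KO BFP, 27.0, 171 and 162 TPM in PAX6 KO BFP and 139.5, 11.8 and 11.8 TPM in PDX1 KO BFP. In both genes each knockout overlapped WT, and the COL3A1 log2 fold change against WT was -2.14 ± 1.16 in ISL1 KO (adjusted p = 0.319), -0.25 ± 1.16 in PAX6 KO and -1.29 ± 1.16 in PDX1 KO (adjusted p of 0.944 and 0.561). DCN and LUM, small proteoglycans that bind such fibrils and mark mesenchymal cells, were highest in the same replicate or replicates of each of these groups. DCN was at 99.4 and 16.03 TPM in WT BFP, 8.58, 9.21 and 24.3 TPM in ISL1 KO BFP, 12.2, 73.3 and 72.9 TPM in PAX6 KO BFP and 62.2, 11.0 and 3.01 TPM in PDX1 KO BFP. The 12 mesenchymal markers listed summed to 359 to 501 TPM in WT BFP, 405 to 486 in ISL1 KO BFP, 274 to 466 in PAX6 KO BFP and 214 to 344 in PDX1 KO BFP, with VIM alone at 149.6 to 330.5 TPM in these libraries, while PRRX1 and TWIST2 stayed near 0 (at most 0.235 and 0.385 TPM). The part of mesenchymal cells in these values was not tested.

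**Figure D3:**
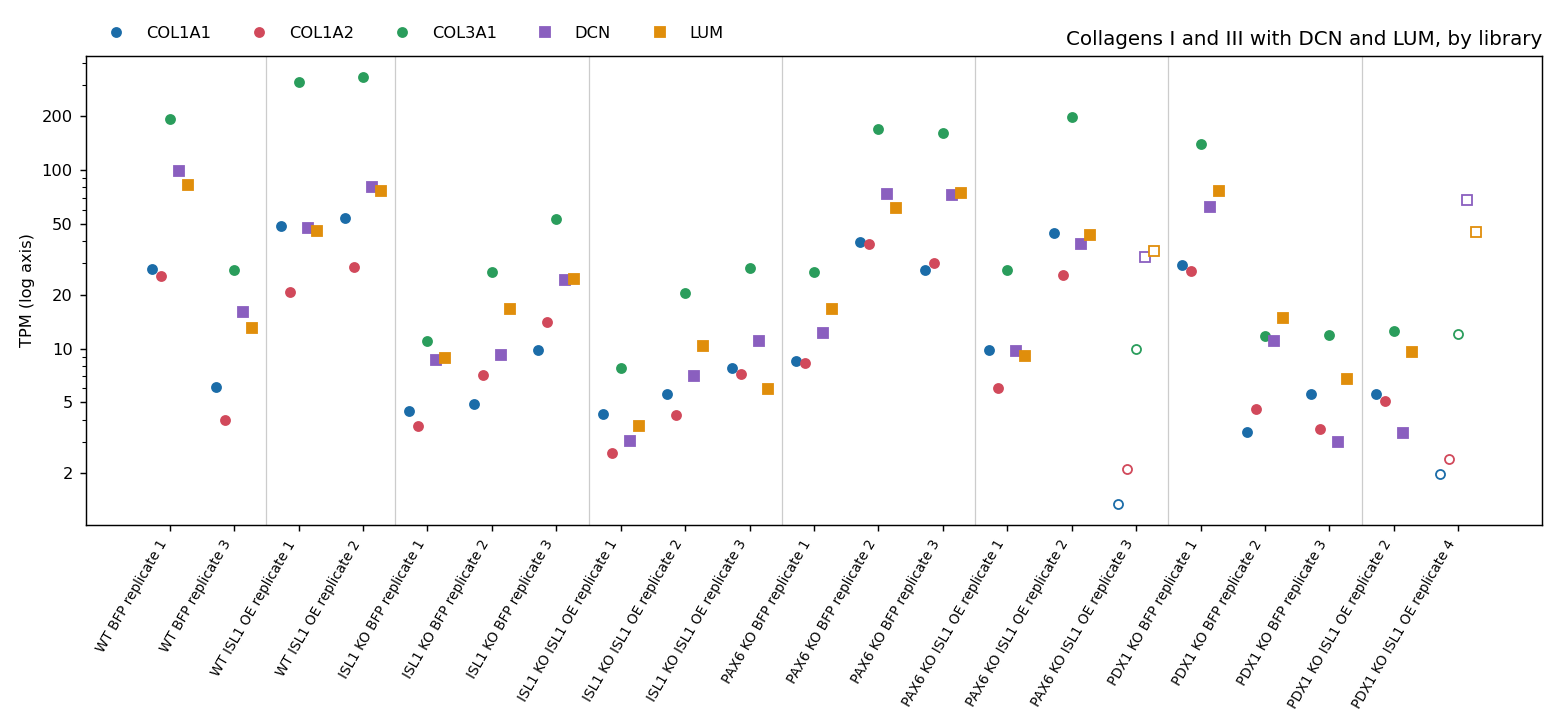
Levels of COL1A1, COL1A2 and COL3A1 (circles) and of DCN and LUM (squares) in each library, in TPM on a log axis, by group, with open points for the 2 libraries that stood apart. WT BFP replicate 1 is above replicate 3 in COL3A1 (194 and 27.7 TPM) and in DCN (99.4 and 16.03 TPM).

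Collagen IV is made of 6 chains that lie in the genome as 3 head-to-head pairs, and its trimers combine COL4A1 with COL4A2, COL4A3 with COL4A4 and COL4A5, or COL4A5 with COL4A6. COL4A1 and COL4A2 lie on chromosome 13 (110148963 to 110307233 and 110305812 to 110513209, GRCh38), and their annotated gene bodies overlap, so reads from the overlap cannot be assigned in unstranded data. COL4A3 and COL4A4 lie on chromosome 2 with annotated start sites 419 bases apart in RefSeq, and COL4A5 and COL4A6 lie on chromosome X with starts 380 bases apart. For COL4A3 and COL4A4 the stretch outside both gene bodies is shown, since both genes share it as upstream sequence (RefSeq, GRCh38.p14, plus strand, chr2:227164454-227164564). For COL4A5 and COL4A6 only the 250 bases of it before the COL4A5 start are shown (chrX:108439588-108439837). The rest of that stretch, next to COL4A6, was not searched. Capitals mark matches on either strand to the GC box GGGCGG in the chromosome 2 sequence and to the CCAAT box, CCAAT, in the chromosome X sequence.
COL4A3 and COL4A4: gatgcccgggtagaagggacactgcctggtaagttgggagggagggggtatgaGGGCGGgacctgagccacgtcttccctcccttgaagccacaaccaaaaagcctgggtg
COL4A5 and COL4A6: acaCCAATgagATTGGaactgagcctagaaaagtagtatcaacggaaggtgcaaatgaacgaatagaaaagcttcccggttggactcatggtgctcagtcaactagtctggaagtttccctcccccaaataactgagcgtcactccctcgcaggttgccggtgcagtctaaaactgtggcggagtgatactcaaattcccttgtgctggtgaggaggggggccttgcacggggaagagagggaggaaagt
The COL4A3 and COL4A4 stretch held 1 GC box at 61.3% GC, and the part shown for COL4A5 and COL4A6 held 2 CCAAT matches at 51.2% GC. Neither of the sequences shown held the TATA box letters TATAAA or the homeodomain core TAATTA. Among 34943 RefSeq windows of 300 bases around start sites, searched on both strands, 44.9% held GGGCGG, 34.6% CCAAT, 11.6% TATAAA and 4.85% TAATTA. Of the 55 windows of 41 members in that table, 58.2%, 29.1%, 14.5% and 1.82% held them.

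COL4A2 and COL4A5 were the most abundant collagen IV chains, and the ratio of COL4A1 to COL4A2 in TPM had a median of 0.250. The COL4A3 and COL4A4 pair had a similar pattern of levels across genotypes. COL4A3 was at 0.426 and 0.285 TPM in WT BFP, 1.67, 1.78 and 0.797 TPM in ISL1 KO BFP, 1.40, 1.496 and 0.467 TPM in PAX6 KO BFP and 0.121, 0.218 and 0.199 TPM in PDX1 KO BFP. COL4A4 was at 1.19 and 1.49 TPM in WT BFP, 2.57, 3.64 and 1.49 TPM in ISL1 KO BFP, 2.70, 2.82 and 1.79 TPM in PAX6 KO BFP and 0.714, 0.461 and 0.781 TPM in PDX1 KO BFP. For both genes the 3 PDX1 KO libraries were the lowest of all BFP libraries, PAX6 KO lay above WT except for COL4A3 in CPM, and the ISL1 KO and PAX6 KO libraries overlapped each other. Against WT neither was called with all libraries. The 19-library fit called both higher in ISL1 KO (log2 fold change 1.39 ± 0.36 and 1.05 ± 0.33, adjusted p = 0.00978 and 0.0312) and both higher in PAX6 KO. It called both lower in PDX1 KO (-1.46 ± 0.38 and -1.41 ± 0.35, adjusted p = 0.00716 and 0.00466).

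ISL1 KO and PDX1 KO also differed from each other in this pair. With all libraries, PDX1 KO was below ISL1 KO in COL4A3 by a log2 fold change of -2.82 ± 0.67 (adjusted p = 0.0239) and in COL4A4 by -2.44 ± 0.49 (adjusted p = 0.00928). The COL4A3 call was lost without ISL1 KO BFP replicate 1 or 2 or without any of the 3 PDX1 KO BFP libraries (adjusted p = 0.061 to 0.121), and the COL4A4 call without PDX1 KO BFP replicate 2 (0.06) or 3 (0.0535). COL4A4 was higher in PAX6 KO than in PDX1 KO by 2.38 ± 0.49 (adjusted p = 0.0147), which was lost without PAX6 KO BFP replicate 1 or PDX1 KO BFP replicate 2 or 3 (adjusted p = 0.0536 to 0.0831).

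Of the other pairs, COL4A6 was higher than WT in all 3 knockouts in the 19-library fit. It was at 3.22 and 2.79 TPM in WT BFP, 8.39, 10.9 and 8.33 TPM in ISL1 KO BFP, 5.63, 6.78 and 5.21 TPM in PAX6 KO BFP and 5.69, 3.72 and 5.87 TPM in PDX1 KO BFP. No knockout library overlapped the WT libraries. The log2 fold changes in that fit were 1.65 ± 0.21, 1.01 ± 0.21 and 0.73 ± 0.22 (adjusted p = 5.72e-05, 0.00252 and 0.0169), while with all libraries the adjusted p was 0.126, 0.391 and 0.505. COL4A2 was at 25.7 and 17.1 TPM in WT BFP and 77.7, 38.6 and 85.0 TPM in PDX1 KO BFP, without overlap, and its log2 fold change of 1.40 ± 0.70 was called only in the 19-library fit (adjusted p = 0.259 and 0.00166).

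**Figure D4:**
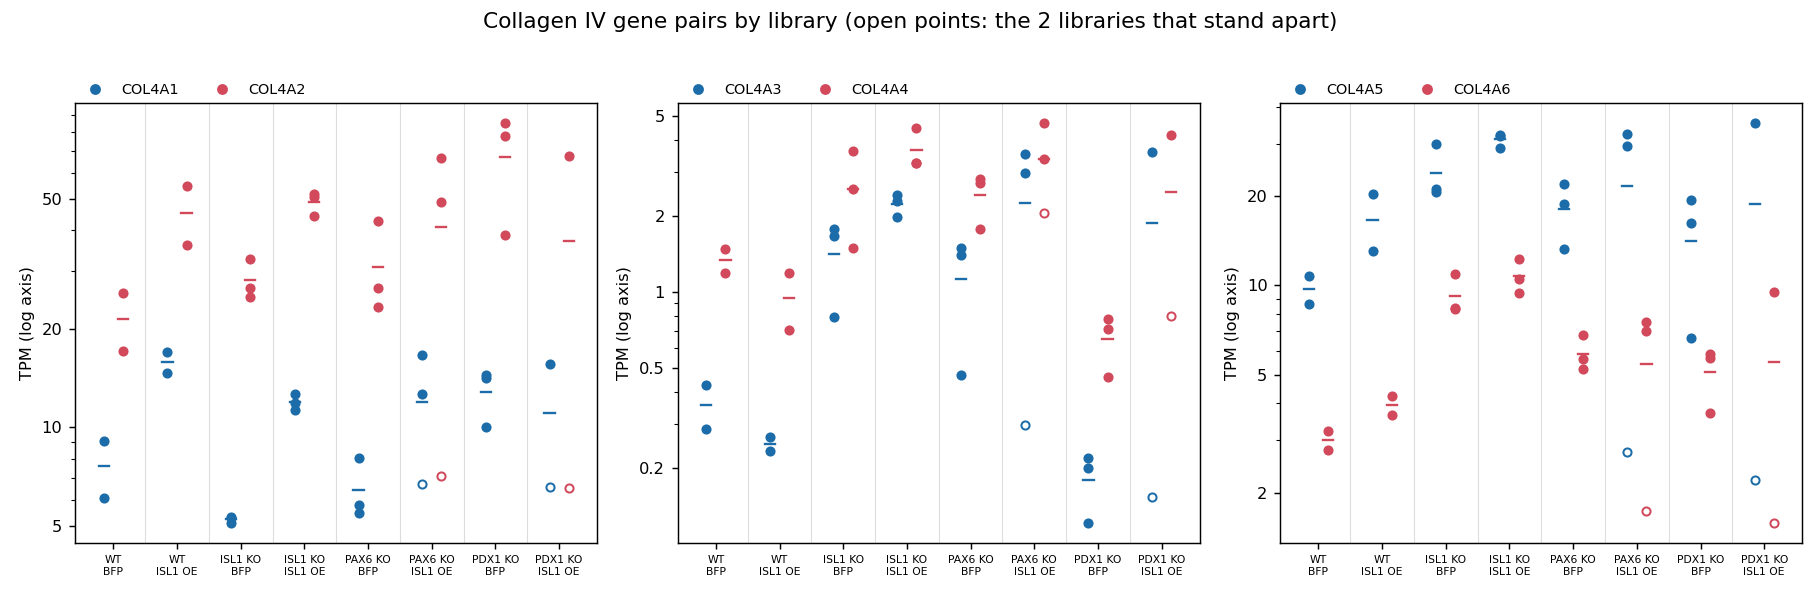
Levels of the 6 collagen IV chains by genomic pair, in TPM on a log axis, with a point for each library by group, bars at group means and open points for the 2 libraries that stood apart. COL4A3 and COL4A4 are lowest in the BFP libraries of PDX1 KO, and the ISL1 OE library of PDX1 KO that is drawn filled stands at 3.61 and 4.21 TPM.

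Among the laminins, the abundant chains LAMA1, LAMB1, LAMC1, LAMB2 and LAMA5 were not called in any knockout with all libraries. LAMA3 and LAMB3, which are chains of the laminin that anchors epithelia at hemidesmosomes, were lower. LAMA3 (chromosome 18, 23689443 to 23956222) was at 8.26 and 7.26 TPM in WT BFP, 1.94, 1.96 and 1.20 TPM in ISL1 KO BFP, 2.46, 3.64 and 1.71 TPM in PAX6 KO BFP and 2.91, 0.977 and 1.33 TPM in PDX1 KO BFP. For LAMA3 all 9 knockout BFP libraries were below both WT libraries.

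LAMA3 was called in PDX1 KO at a log2 fold change of -2.07 ± 0.52 (adjusted p = 0.0161). That call was lost without WT BFP replicate 1 (0.126) or 3 (0.0552) or PDX1 KO BFP replicate 2 (0.0733) or 3 (0.0682). LAMB3, at 0.931 and 2.05 TPM in WT BFP, was at 0.241, 0.128 and 0.332 TPM in ISL1 KO BFP and 0.429, 0.590 and 0.385 TPM in PDX1 KO BFP, without overlap. Its log2 fold change was -2.84 ± 0.59 in ISL1 KO (adjusted p = 0.00833; 0.117 without WT BFP replicate 3). In PDX1 KO it was -2.16 ± 0.59 (adjusted p = 0.0235; 0.237, 0.0786 and 0.093 without WT BFP replicate 3 or PDX1 KO BFP replicate 1 or 3).

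Both of these chains were called lower in all 3 knockouts in the 19-library fit. There the LAMA3 log2 fold changes were -1.76 ± 0.37, -1.35 ± 0.37 and -2.10 ± 0.38 in the ISL1, PAX6 and PDX1 knockouts, with adjusted p of 0.00207, 0.0111 and 0.000411. Markers of duct, an epithelium, moved in part alongside: SPP1 and ANXA4 of the 7 listed were called lower in each knockout, KRT7 also in PDX1 KO, and the list summed to 1641 to 1699 TPM in WT BFP, 1617 to 1781 in ISL1 KO BFP, 2058 to 2276 in PAX6 KO BFP and 842 to 1006 in PDX1 KO BFP. Its part in the laminin values was not tested. LAMA2, the alpha chain of muscle and nerve basement membranes, was called higher in ISL1 KO (1.69 ± 0.46, adjusted p = 0.0437) from 0.383 and 0.286 to 0.385, 0.631 and 1.18 TPM, and the call was lost in 12 of 21 removals of 1 library, among them each WT BFP library (adjusted p = 0.0501 to 0.241).

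Of the 9 member calls that held in every removal of 1 library, over all comparisons, 6 were of the FACIT chains COL9A2 and COL12A1. COL9A2 (chromosome 1, 40300487 to 40317813), a chain of collagen IX that decorates collagen II fibrils, was lower in ISL1 KO and in PDX1 KO than in WT. It was at 34.5 and 28.9 TPM in WT BFP, 16.6, 14.2 and 14.2 TPM in ISL1 KO BFP, 25.4, 28.4 and 30.2 TPM in PAX6 KO BFP and 7.53, 7.02 and 9.59 TPM in PDX1 KO BFP. The ISL1 KO and PDX1 KO libraries overlapped neither WT nor each other, and PAX6 KO overlapped WT in TPM but not in CPM (36.5 to 44.5 against 56.8 and 60.9). The log2 fold change against WT was -1.43 ± 0.23 in ISL1 KO (adjusted p = 0.00126), -2.27 ± 0.23 in PDX1 KO (9.28e-05) and -0.59 ± 0.23 in PAX6 KO (0.148, or 0.00852 in the 19-library fit). The ISL1 KO and PDX1 KO calls held in every removal of 1 library.

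Knockouts differed among themselves in COL9A2 as well. PAX6 KO was above PDX1 KO by 1.69 ± 0.21 (adjusted p = 0.000228), a call that held in every removal of 1 library. PDX1 KO was below ISL1 KO by -0.85 ± 0.21 (0.0245; lost without ISL1 KO BFP replicate 1 or any PDX1 KO BFP library, 0.0553 to 0.122), and PAX6 KO was above ISL1 KO by 0.84 ± 0.21 (0.0389; lost in 11 of 21 removals, 0.051 to 0.18). With the replicate block, which reads ISL1 KO and PAX6 KO at replicate 1, the adjusted p of these last 2 was 0.0567 and 0.465. COL9A3, a partner chain of collagen IX, was called lower in PDX1 KO (-2.50 ± 0.71, adjusted p = 0.0288) although its groups overlapped, at 2.86 and 0.553 TPM in WT BFP and 1.01, 0.306 and 0.512 TPM in PDX1 KO BFP. Without WT BFP replicate 1 the adjusted p was 0.8, and without PDX1 KO BFP replicate 2 or 3 it was 0.117 or 0.101. Of the 6 cartilage markers tested, HAPLN1, a link protein of cartilage matrix, was called lower in the same 2 knockouts as COL9A2 (-2.31 ± 0.69 in ISL1 KO and -2.14 ± 0.69 in PDX1 KO, adjusted p = 0.0497 and 0.0498), at no more than 1.55 TPM in any library. SOX5 and CNMD were called higher in PDX1 KO (1.20 ± 0.26 and 2.997 ± 0.66, adjusted p = 0.0087 and 0.00944). ACAN, the main proteoglycan of cartilage, was at most 0.822 TPM. The fit without the libraries that stood apart called SOX5 and ACAN higher in each knockout, and CNMD higher in ISL1 KO and PDX1 KO. These higher calls were opposite in direction to COL9A2. That fit called HAPLN1 lower in ISL1 KO and PDX1 KO, and SOX6 lower in ISL1 KO. The part of cartilage cells in the collagen IX values was not tested.

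COL12A1 (chromosome 6, 75084326 to 75206051), a FACIT chain of collagen I fibrils in tendon, muscle and other tissue under tension, was high in PAX6 KO. It was at 10.8, 11.4 and 7.91 TPM in PAX6 KO BFP, against 0.790 and 0.531 TPM in WT BFP, 0.754, 0.631 and 0.717 TPM in ISL1 KO BFP and 1.13, 1.300 and 1.31 TPM in PDX1 KO BFP. The 3 PAX6 KO libraries were above every other BFP library. Its log2 fold change was 3.82 ± 0.55 against ISL1 KO (adjusted p = 0.00167) and 3.05 ± 0.55 against PDX1 KO (0.00627), and both calls held in every removal of 1 library. With the replicate block, which reads both knockouts at replicate 1, the call against ISL1 KO was lost (adjusted p = 0.0908). Against WT it was 3.81 ± 0.62 (0.00549), with an adjusted p of 0.0672 and 0.0917 when WT BFP replicate 1 or 3 was left out, either of which left WT BFP with 1 library.

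COL14A1, a FACIT chain that binds collagen I fibrils through decorin, was lower in PDX1 KO. It was at 5.56 and 4.13 TPM in WT BFP, 1.62, 2.34 and 1.44 TPM in ISL1 KO BFP, 2.68, 5.32 and 3.48 TPM in PAX6 KO BFP and 2.12, 0.429 and 0.921 TPM in PDX1 KO BFP. PDX1 KO and ISL1 KO libraries were all below WT, and PAX6 KO overlapped it in TPM but lay below it in CPM. The log2 fold change in PDX1 KO was -2.51 ± 0.64 (adjusted p = 0.0166), lost without either WT BFP library (0.115 and 0.0512) or PDX1 KO BFP replicate 2 or 3 (0.0691 and 0.0701). COL19A1, a FACIT chain found at basement membrane zones, was higher in PAX6 KO, at 1.37, 1.69 and 1.100 TPM against 0.169 and 0.0658 TPM in WT BFP (2.52 ± 0.67, adjusted p = 0.0447). That call was lost in 16 of 21 removals of 1 library, among them each WT BFP and each PAX6 KO BFP library (adjusted p = 0.0515 to 0.307).

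Among the other collagens 3 transmembrane chains were called. COL13A1 (chromosome 10, 69801867 to 69964275), a transmembrane collagen of cell-matrix junctions and of the neuromuscular synapse, was higher in every knockout. It was at 0.493 and 0.347 TPM in WT BFP, 2.35, 1.96 and 4.03 TPM in ISL1 KO BFP, 6.56, 4.85 and 5.43 TPM in PAX6 KO BFP and 4.32, 2.66 and 2.52 TPM in PDX1 KO BFP. All 9 knockout libraries were above both WT libraries. The log2 fold change was 2.37 ± 0.48 in ISL1 KO (adjusted p = 0.00948; 0.0583 and 0.132 without WT BFP replicate 1 or 3), 3.28 ± 0.48 in PAX6 KO (0.00169) and 2.60 ± 0.48 in PDX1 KO (0.0036; 0.0586 without WT BFP replicate 3). The PAX6 KO call held in every removal.

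COL25A1 (chromosome 4, 108808725 to 109302752), a transmembrane collagen made in neurons whose shed part was found in amyloid plaques, was lower in every knockout. It was at 2.83 and 2.01 TPM in WT BFP, 0.593, 1.13 and 0.812 TPM in ISL1 KO BFP, 0.531, 0.687 and 0.273 TPM in PAX6 KO BFP and 0.855, 0.438 and 0.662 TPM in PDX1 KO BFP. No knockout library reached either WT library. In PAX6 KO the log2 fold change was -2.87 ± 0.42 (adjusted p = 0.00086), and this call held in every removal of 1 library. In ISL1 KO it was -1.51 ± 0.41 (0.0346), lost without WT BFP replicate 1 (0.427) or any ISL1 KO BFP library (0.126, 0.0569 and 0.104). In PDX1 KO it was -1.97 ± 0.41 (0.00499), lost without WT BFP replicate 1 (0.145). Of 7 neuronal markers listed, POU4F1, TUBB3 and ELAVL3 were called higher in each knockout, opposite in direction to COL25A1. The fit without the libraries that stood apart also called these markers higher in each knockout. Beside them it called ELAVL4 lower in ISL1 KO, PRPH lower in PAX6 KO, and DCX and STMN2 higher in PDX1 KO. The part of neurons in the COL25A1 values was not tested.

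COL23A1, a further transmembrane collagen, was low throughout, at 0.557 and 0.921 TPM in WT BFP, 0.324, 0.141 and 0.137 TPM in PAX6 KO BFP and 0.359, 0.253 and 0.140 TPM in PDX1 KO BFP. It was called lower in PAX6 KO (-2.40 ± 0.54, adjusted p = 0.0129; 0.14, 0.0501 and 0.0624 without WT BFP replicate 3 or PAX6 KO BFP replicate 2 or 3). It was also called lower in PDX1 KO (-1.76 ± 0.53, adjusted p = 0.0365), a call lost in 6 of 21 removals, among them each WT BFP library (0.051 to 0.252). 

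COL8A1 (chromosome 3, 99638475 to 99799226), a short-chain collagen that forms hexagonal networks beneath endothelia, set ISL1 KO apart. It was at 2.88, 2.43 and 4.95 TPM in ISL1 KO BFP, 0.102 and 0.376 TPM in WT BFP, 1.68, 0.998 and 1.65 TPM in PAX6 KO BFP and 0.278, 0.365 and 0.182 TPM in PDX1 KO BFP. ISL1 KO libraries were above all other BFP libraries, and PAX6 KO lay between. The log2 fold change was 3.64 ± 0.67 against WT (adjusted p = 0.00782; 0.111 without WT BFP replicate 1), and PDX1 KO was below ISL1 KO by -3.53 ± 0.58 (0.00312), which held in every removal. The 7 endothelial markers summed to 79.2 to 86.4 TPM in ISL1 KO BFP, 40.3 to 41.0 in WT BFP, 66.7 to 90.5 in PAX6 KO BFP and 50.7 to 55.1 in PDX1 KO BFP, mostly CLDN5. In ISL1 KO against WT, ESAM was called higher (1.01 ± 0.25, adjusted p = 0.026) and PECAM1 lower. CLDN5 was at 0.86 ± 0.26 (adjusted p = 0.0614, or 0.00012 in the 19-library fit), and the 19-library fit also called KDR lower. The median log2 fold change of the 7 markers was -1.57 with all libraries. The defining genes PECAM1 and VWF were at most 0.21 and 0.247 TPM in any library. The part of endothelial cells in COL8A1 was not tested. COL15A1, a basement membrane collagen related to COL18A1, had 0 counts in all 3 ISL1 KO BFP libraries and 44 and 1 counts in WT BFP. With counts pooled over each group it was at least 33.5-fold lower against a floor of 3 counts over the group. That bound rests on WT BFP replicate 1, since replicate 3 alone is under the floor. The COL15A1 call (adjusted p = 0.041) was lost in 10 of 21 removals (0.0523 to 0.659), the last value without WT BFP replicate 1.

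Knockouts compared with each other gave few calls with all libraries. Between PAX6 KO and ISL1 KO, 2 members were higher and 0 lower in PAX6 KO, beside 1.79% and 0.987% of all genes. There the 19-library fit called 6 and 4 (5.89% and 4.79%) and DESeq2 4 and 2, beside 674 and 408 of all 22184 genes. Between PDX1 KO and ISL1 KO, 0 were higher and 4 lower in PDX1 KO, beside 2.39% and 3.32%. There the 19-library fit called 5 and 15 (12.6% and 13.5%) and DESeq2 2 and 5, beside 1060 and 1269 of all genes. PAX6 KO against PDX1 KO gave 3 higher and 0 lower, beside 1.7% and 1.91%. There the 19-library fit called 11 and 3 (10.4% and 9.73%) and DESeq2 7 and 1, beside 798 and 818 of all genes. In this last comparison 43 of 53 members had a positive log2 fold change and the median was 0.75 against 0.00 over all genes. With the replicate block, which reads both at replicate 1, PAX6 KO against ISL1 KO gave 0 member calls in either direction, beside 128 higher and 43 lower of all genes. The members called with all libraries in these 3 comparisons are COL4A3, COL4A4, COL8A1, COL9A2 and COL12A1.

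The vector was compared with BFP within each genotype, so these comparisons share their BFP libraries with those between genotypes. In WT, 0 of 53 members were called in either direction by edgeR, beside 0.0361% of all genes higher and 0% lower. At an unadjusted p under 0.05, 7 members were higher and 2 lower. DESeq2 called 3 and 1, beside 44 and 19 of all 22184 genes. In ISL1 KO 0 were called, beside 0.243% and 0.18%, with 9 and 2 at an unadjusted p under 0.05. DESeq2 called 4 and 1 there, beside 210 and 188 of all genes. In PAX6 KO 0 were called, beside 0.203% and 0.212%, with 2 and 3 unadjusted. DESeq2 called 0 and 2 there, beside 194 and 283 of all genes. Shares of all genes at an unadjusted p under 0.05 are not given. The 19-library fit called 5 higher and 0 lower in WT (0.796% and 0.892% of all genes), 8 and 2 in ISL1 KO (2.35% and 3.57%) and 3 and 1 in PAX6 KO (1.84% and 4.18%). In WT, 42 of 53 members had a positive log2 fold change with a median of 0.56 against -0.02 over all genes, and in 27 both ISL1 OE libraries were above both BFP libraries in CPM, beside 19.6% of all genes. In 5 they were below, beside 24.1%.

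COL14A1 was called higher with the vector in WT, ISL1 KO and PAX6 KO in the 19-library fit, where PDX1 KO had 1 vector library. In WT it was at 45.9 and 34.0 TPM with the vector and 5.56 and 4.13 TPM with BFP. The corresponding levels were 14.8, 14.6 and 5.65 and 1.62, 2.34 and 1.44 TPM in ISL1 KO, 16.1, 18.8 and 1.63 and 2.68, 5.32 and 3.48 TPM in PAX6 KO, and 7.44 and 0.996 and 2.12, 0.429 and 0.921 TPM in PDX1 KO. Groups did not overlap in WT or ISL1 KO, and in PAX6 KO and PDX1 KO the only vector libraries not above their BFP group in TPM were the 2 that stood apart; in CPM the PDX1 KO library was above it too (9.70 against at most 7.14). The log2 fold changes were 2.89 ± 0.69, 2.69 ± 0.57, 1.56 ± 0.56 and 2.17 ± 0.64 in the order WT, ISL1 KO, PAX6 KO, PDX1 KO, and the adjusted p was 0.415, 0.0657, 0.318 and 0.031. In the 19-library fit they were 2.89 ± 0.45, 2.70 ± 0.38, 2.03 ± 0.41 and 2.78 ± 0.54, the last from 1 vector library. The first 3 were called (adjusted p = 0.005, 0.000657 and 0.0105).

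COL19A1 was likewise called higher with the vector in WT, ISL1 KO and PAX6 KO in the 19-library fit. It was at 1.78 and 1.79 TPM against 0.169 and 0.0658 TPM in WT, 2.88, 2.71 and 1.80 against 0.565, 0.758 and 0.130 TPM in ISL1 KO, and 3.98, 3.31 and 3.78 against 1.37, 1.69 and 1.100 TPM in PAX6 KO. In these 3 genotypes vector and BFP libraries did not overlap, and PAX6 KO ISL1 OE replicate 3 was as high as its group mates. The 19-library log2 fold changes were 3.35 ± 0.36, 2.50 ± 0.27, 1.46 ± 0.29 and 3.41 ± 0.37 for WT and then the ISL1, PAX6 and PDX1 knockouts. The adjusted p was 0.000198, 6.16e-05 and 0.00861 in the first 3, and the last value rests on 1 vector library. PDX1 KO ISL1 OE replicate 4, left out there, was below its BFP group in COL19A1 (0.188 against 0.306 to 0.389 TPM). With all libraries the adjusted p was 0.315, 0.0951 and 0.277 in WT, ISL1 KO and PAX6 KO.

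**Figure D5:**
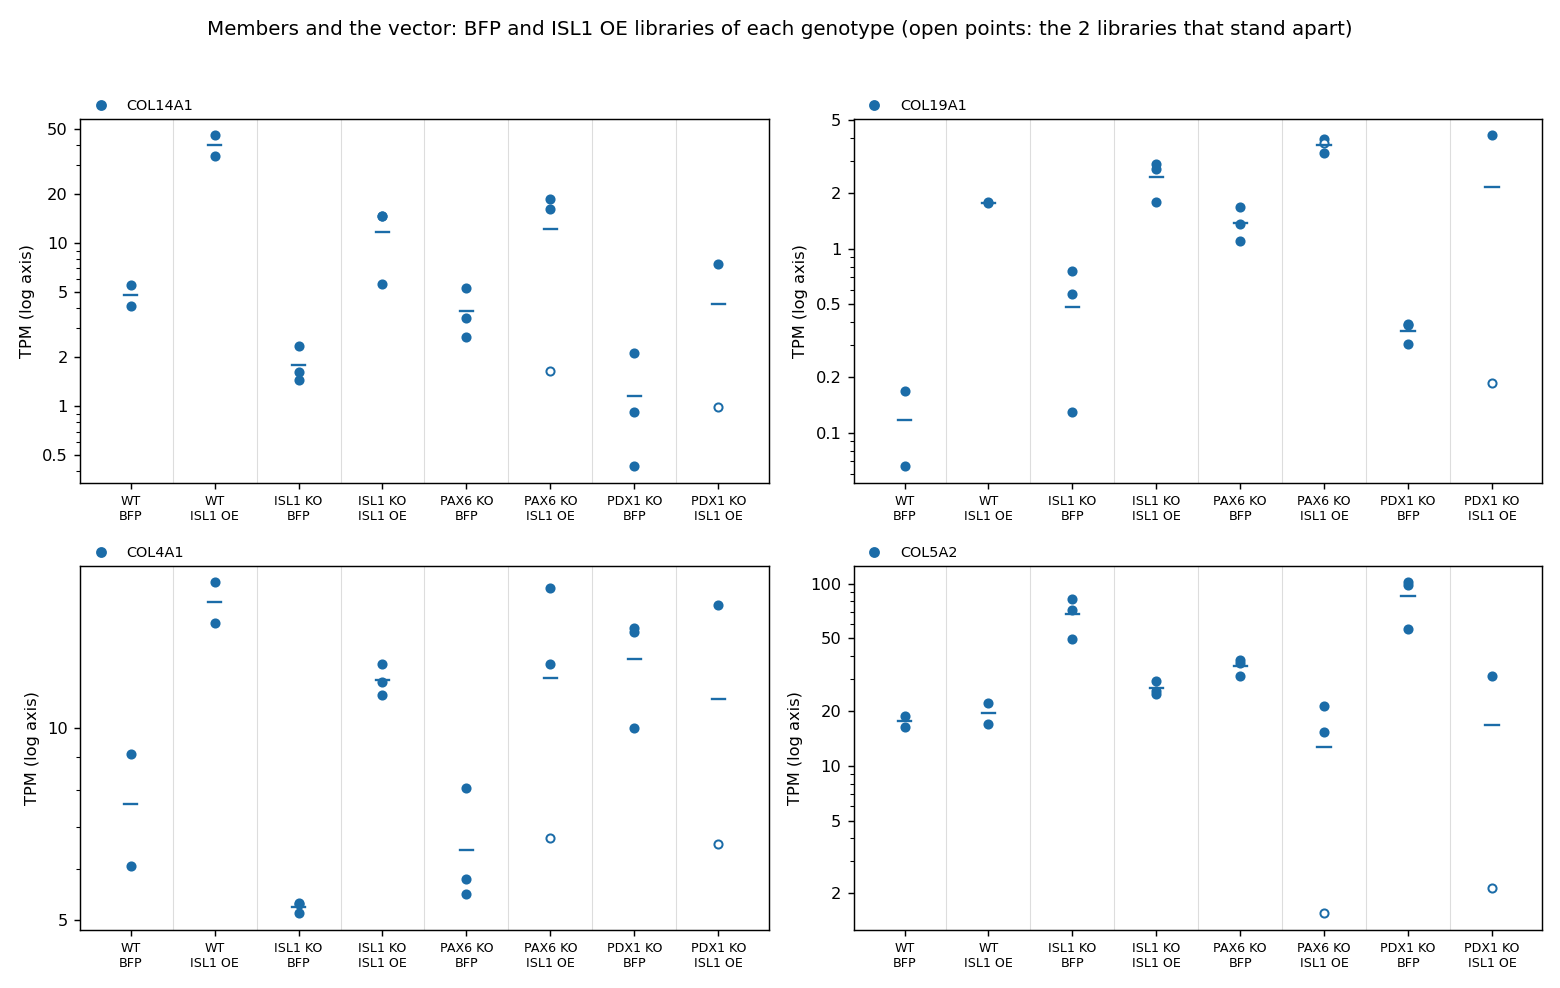
Levels of COL14A1, COL19A1, COL4A1 and COL5A2 in libraries labelled BFP and ISL1 OE, by genotype, in TPM on a log axis, with bars at group means and open points for the 2 libraries that stood apart. COL14A1 is higher with the vector in WT (45.9 and 34.0 TPM against 5.56 and 4.13 TPM), and COL5A2 is lower with it in the 3 knockouts.

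COL4A1, the partner of COL4A2 in the collagen IV of nearly all basement membranes, was higher with the vector in WT, ISL1 KO and PAX6 KO. It was at 16.98 and 14.6 TPM against 9.12 and 6.08 TPM in WT, 11.8, 12.6 and 11.3 against 5.29, 5.12 and 5.31 TPM in ISL1 KO, and 12.6, 16.6 and 6.71 against 5.48, 8.05 and 5.80 TPM in PAX6 KO. Of these 3 genotypes groups overlapped in PAX6 KO alone, through the library that stood apart. The 19-library log2 fold changes were 1.02 ± 0.24, 1.22 ± 0.19 and 1.20 ± 0.22 (adjusted p = 0.0384, 0.00125 and 0.00536), against adjusted p of 1, 0.266 and 0.467 with all libraries. In PDX1 KO it was 0.25 ± 0.27 in that fit (adjusted p = 0.598) and -0.34 ± 0.43 with all libraries (0.614).

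LAMA3 reached its highest levels in WT with the vector. It was at 32.8 and 41.2 TPM there against 8.26 and 7.26 TPM with BFP, a log2 fold change of 2.25 ± 0.57 (adjusted p = 0.454, or 0.00988 in the 19-library fit). In the knockouts LAMA3 with the vector was at 3.96, 3.17 and 2.95 TPM in ISL1 KO, 5.86, 6.82 and 1.79 TPM in PAX6 KO and 3.89 and 5.05 TPM in PDX1 KO. All of these were below both WT BFP libraries in TPM, while in CPM PAX6 KO ISL1 OE replicate 2 (19.1) was above WT BFP replicate 3 (16.3). None of the 3 knockout differences was called by edgeR in either fit. The difference between the effects in WT and in the knockouts was not tested.

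COL5A2 was lower with the vector in the knockouts. In ISL1 KO it was at 24.9, 25.7 and 29.2 TPM with the vector against 49.7, 71.2 and 82.5 TPM with BFP, in PAX6 KO at 15.3, 21.3 and 1.56 against 38.0, 31.2 and 36.7 TPM, and in PDX1 KO at 31.3 and 2.15 against 98.1, 56.5 and 102 TPM. No vector library reached its BFP group in any knockout. In WT the levels were 22.1 and 16.9 and 18.9 and 16.3 TPM, which overlapped. The log2 fold changes were 0.01 ± 0.67, -1.40 ± 0.54, -1.54 ± 0.55 and -2.30 ± 0.61 in the order WT, ISL1 KO, PAX6 KO, PDX1 KO, and the adjusted p was 1, 0.438, 0.304 and 0.0309. The ISL1 KO and PAX6 KO differences were called in the 19-library fit (adjusted p = 0.000542 and 0.0131), where PDX1 KO had 1 vector library. In the fit of all libraries the PDX1 KO call was lost without PDX1 KO ISL1 OE replicate 4 (0.304) or PDX1 KO BFP replicate 1 (0.0668) or 3 (0.0808), and with the replicate block (0.0508).

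PDX1 KO had the most vector calls, 6 higher and 1 lower, beside 9.09% and 5.34% of all genes, and the 19-library fit called 16 and 1 (6.9% and 4.28%). This group has 2 vector libraries that differ widely. COL4A3 was at 3.61 and 0.153 TPM with the vector and 0.121, 0.218 and 0.199 TPM with BFP, COL4A4 at 4.21 and 0.799 and 0.714, 0.461 and 0.781 TPM, and COL9A2 at 23.5 and 5.25 and 7.53, 7.02 and 9.59 TPM. In all 3 genes replicate 2 was far above the BFP libraries, while replicate 4 lay within the BFP range in COL4A3, just above it in COL4A4 and below it in COL9A2. In CPM, replicate 4 was above the BFP libraries in COL9A2 as well (20.3 against 11.1 to 13.8). The log2 fold changes were 2.81 ± 0.74, 2.34 ± 0.55 and 1.18 ± 0.23 (adjusted p = 0.02, 0.0112 and 0.00421). COL9A2 kept its call in every removal, and without PDX1 KO ISL1 OE replicate 2 the adjusted p was 0.962 for COL4A3 and 0.248 for COL4A4. The COL4A3 call was also lost without PDX1 KO BFP replicate 1 (0.0601) or 2 (0.0707).

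COL9A1, COL14A1 and COL19A1 were the other calls in PDX1 KO. COL9A1 was at 3.64 and 0.126 TPM with the vector and 0.777, 0.395 and 0.477 TPM with BFP (1.97 ± 0.63, adjusted p = 0.0442), and COL19A1 at 4.14 and 0.188 and 0.306, 0.384 and 0.389 TPM (2.49 ± 0.63, 0.017). Without PDX1 KO ISL1 OE replicate 2 both turned to the other direction, with log2 fold changes of -0.93 and -0.41. The COL9A1 call was lost in 15 of 21 removals (adjusted p = 0.0509 to 0.145) and with the replicate block (0.0763), and that of COL19A1 also without PDX1 KO BFP replicate 1 (0.0618) or 2 (0.0546). The COL14A1 call was lost without that ISL1 OE library (0.149) or PDX1 KO BFP replicate 2 (0.0951) or 3 (0.106).

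Markers of other tissues moved with some of these values. CNMD, a cartilage and eye protein, was higher with the vector in WT (9.69 and 13.8 against 0.212 and 0.330 TPM), PAX6 KO (21.4, 11.1 and 23.3 against 0.855, 0.793 and 0.584 TPM) and PDX1 KO (18.1 and 5.62 against 1.49, 1.87 and 4.57 TPM), and these 3 differences were called. In ISL1 KO it was at 7.49, 7.03 and 6.39 against 1.83, 0.590 and 2.07 TPM, without overlap, and was called in the 19-library fit (adjusted p = 0.0951 and 0.00632). Of the 6 cartilage markers tested, CNMD was the only one called in WT and in PAX6 KO. The list summed to 11.4 to 13.5 TPM in WT BFP and 30.4 to 35.5 in WT ISL1 OE, 16.4 to 19.4 and 24.8 to 26.3 in ISL1 KO, 18.3 to 21.4 and 34.3 to 45.0 in PAX6 KO, and 23.1 to 27.4 and 15.5 to 36.8 in PDX1 KO. In PDX1 KO the duct markers SPP1, ANXA4, KRT19 and KRT7 were called higher with the vector, and the list summed to 842 to 1006 TPM with BFP and 1758 to 1906 with the vector. The endocrine markers summed to 10626 to 23435 TPM with the vector in PDX1 KO, below the BFP libraries. They were also below them in ISL1 KO (13331 to 19692 against 21527 to 30432 TPM) and in PAX6 KO (11701 to 15346 against 16376 to 24712 TPM). In WT the groups overlapped (13741 to 16985 against 16504 to 19441 TPM). The part of these markers' cells in the collagen and laminin values was not tested.

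The vector effects in PAX6 KO and ISL1 KO, which both have 3 libraries in each group, were compared by an interaction term. Of 53 members 0 differed in either direction by edgeR, beside 0% and 0.00451% of all genes. At an unadjusted p under 0.05, 1 was higher and 4 lower. The share of all genes at that threshold is not given, so nothing is read from these counts. DESeq2 called 0, beside 0 and 3 of all 22184 genes. The 19-library fit also gave 0 and 0, beside 0% and 0.0217%. The median difference was -0.44 for members and 0.02 for all genes.

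Genes that act on collagens and laminins were listed by role and read beside them. For scale, edgeR with all libraries called 2.05% of all genes higher and 4.48% lower in ISL1 KO against WT. These shares were 2.41% and 4.25% in PAX6 KO, and 4.56% and 6.84% in PDX1 KO. In the 19-library fit they were 13.3% and 15.1%, 13.9% and 14.9%, and 15.8% and 17.5%. The counts against WT in each list below are read beside these shares. Of 17 genes for folding and hydroxylation, 0 were called higher and 1 lower in ISL1 KO, 0 and 2 in PAX6 KO, and 0 and 7 in PDX1 KO against WT. The 19-library fit called 1 and 9, 0 and 8, and 0 and 11 of 18. PLOD2, the lysyl hydroxylase that prepares collagen for crosslinking, was lower in all 3, with log2 fold changes of -1.47 ± 0.28, -1.63 ± 0.28 and -1.91 ± 0.28 (adjusted p = 0.00357, 0.00223 and 0.000493). In PDX1 KO, SERPINH1, the collagen-specific chaperone of the endoplasmic reticulum, was lower by -1.004 ± 0.21 (0.00445), and P4HA2, a prolyl hydroxylase subunit, by -1.49 ± 0.31 (0.00437). With the vector in PDX1 KO 6 of 17 were higher and 0 lower, beside 9.09% and 5.34% of all genes. SERPINH1 was at 1.09 ± 0.21 (adjusted p = 0.00322) and P4HA2 at 1.65 ± 0.31 (0.00294). The 2 vector libraries differed: SERPINH1 was at 153 and 56.4 against 79.0, 49.9 and 68.4 TPM with BFP, and P4HA2 at 536 and 99.3 against 110.2, 101 and 142 TPM. Replicate 2 was above all 3 BFP libraries in both genes, and replicate 4 was within their range in SERPINH1 and below it in P4HA2.

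Of 14 genes for procollagen trimming and crosslinking, 1 was higher and 2 lower in ISL1 KO, 0 were called in PAX6 KO, and 2 were higher and 2 lower in PDX1 KO, against 4 and 3, 3 and 3, and 4 and 4 in the 19-library fit. LOXL4, a lysyl oxidase, was at 0.728, 1.38 and 1.13 TPM in ISL1 KO BFP against 27.6 and 37.1 TPM in WT BFP (-5.21 ± 0.55, adjusted p = 7.54e-05). LOX, which crosslinks collagen and elastin, was lower in ISL1 KO (-1.51 ± 0.30, 0.00571) and in PDX1 KO (-2.23 ± 0.30, 0.000361). Of 15 basement membrane partners, SPARC, a collagen-binding glycoprotein, was lower in ISL1 KO (-2.78 ± 0.72, 0.0304), FREM1 was higher in PAX6 KO (2.46 ± 0.63, 0.0417), and 0 were called in PDX1 KO; the 19-library fit called 2 and 2, 3 and 1, and 2 and 5.

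Of 19 receptors, 0 were higher and 4 lower in ISL1 KO, 0 and 3 in PAX6 KO, and 1 and 5 in PDX1 KO, against 2 and 8, 2 and 6, and 2 and 6 in the 19-library fit. ITGA1, the alpha chain of a collagen and laminin receptor, was lower in all 3 knockouts, with log2 fold changes of -2.44 ± 0.31, -1.65 ± 0.31 and -2.02 ± 0.31 (adjusted p = 0.000172, 0.00419 and 0.000658). It was at 18.5 and 15.2 TPM in WT BFP and between 3.07 and 8.05 TPM in the 9 knockout BFP libraries, without overlap. Of 11 proteases and inhibitors, TIMP3, a matrix-bound inhibitor of metalloproteinases, was lower in all 3 (-2.39 ± 0.37, -1.83 ± 0.37 and -2.92 ± 0.37, adjusted p = 0.000976, 0.00777 and 0.000274), and no other was called by edgeR with all libraries in ISL1 KO or PAX6 KO, where the 19-library fit called 1 and 3 and 1 and 4. With the vector, edgeR with all libraries called 0 of the 76 tested genes of these 5 lists in WT, ISL1 KO or PAX6 KO. At an unadjusted p under 0.05 there were 2 higher and 5 lower, 8 and 3, and 4 and 6. Shares of all genes at that threshold are not given, so nothing is read from these counts. DESeq2 called 0 and 0, 3 and 0, and 1 and 3. Of all 22184 genes it called 44 and 19, 210 and 188, and 194 and 283. The 19-library fit called 1 and 4, 7 and 3, and 4 and 4. Of all genes it called 0.796% and 0.892%, 2.35% and 3.57%, and 1.84% and 4.18%. In PDX1 KO, edgeR with all libraries called 15 of the 76 genes higher with the vector and 5 lower, beside 9.09% and 5.34% of all genes. These calls rest on 2 vector libraries that differ widely.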

How the data were processed

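Per the labels' protocols, extraction used the Quick-RNA kit of Zymo, cDNA came from SMART-Seq v4 and libraries from KAPA EvoPrep, a chemistry without strand or molecule tags. The authors deposited estimated counts per gene, library and lane, with STAR and GRCh38 named in the submitters' processing notes; no source used here names the counting program. TPM values, scaled by the authors for length and depth, were averaged over the 4 lanes of a library, and estimated counts were summed over lanes and rounded. Of the columns, 12 from 3 libraries that match no label were not used. Symbols and coordinates came from GENCODE 29 (GRCh38), with 4202 of 38592 identifiers named from a newer table; sequences came from RefSeq.

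All 21 libraries entered 1 edgeR 4.0.16 fit (R 4.3.3) with 8 group means, TMM scaling and the filterByExpr filter. In counts simulated for PAX6 KO against WT over 22184 genes, the test recovered 5 of 67 genes changed 2-fold, 48 of 67 changed 4-fold and 65 of 66 changed 8-fold, with 4 false among 122 calls. The changed genes all had a mean above 2 CPM, and otherwise all libraries were given the same mean for a gene. This recovery therefore does not extend to members below that level, nor to libraries that stand apart. Alternatives were DESeq2 1.42.0, RLE or library-size scaling, no filter, leaving out each library or the 2 that stood apart, and a replicate block. Library totals of 40959445 to 66818593 counts set the counting precision, and p-values measure the spread between these replicates. Same-numbered PAX6 KO libraries with and without the vector deviated together (correlations 0.176, 0.382 and 0.346), which pairs them by the rule used; the block changed no call of the vector in PAX6 KO.

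Members' values are described in full where called, where among the 3 most abundant of their class, or where called in the 19-library fit in several genotypes, and at most 4 genes of each list per comparison. LAMA3 in the vector comparison and COL4A6 were chosen after their values were seen. A tested member that counts toward all totals is not reported by name here. The rule on names and the lists were set with earlier results of these data known.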

Additional observations from a re-analysis of the deposited data

Results flagged for a closer look

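For 3 members the libraries labelled ISL1 OE all lay on one side of the BFP libraries, in CPM, in 1 genotype and all on the other side in another; these differences between genotypes were not tested. COL4A3 was lower with the vector in WT (log2 fold change -1.27) and higher in ISL1 KO (0.49). COL4A4 was lower in WT (-0.45) and higher in PDX1 KO (2.34). COL9A2 was lower in WT (-0.62) and higher in ISL1 KO (0.38) and in PDX1 KO (1.18), and it was lower in PAX6 KO (-0.38), against both ISL1 KO and PDX1 KO. Of these values only those of COL4A4 and COL9A2 in PDX1 KO were called by edgeR with all libraries.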

How the results depend on the processing

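Of 36 called member values, all kept their direction and their call with DESeq2, with RLE scaling and in the 19-library fit. With library size alone 26 kept the call and 10 lost it, without a filter 34 and 2, and with the replicate block 25 and 11. Between genotypes the block reads ISL1 KO and PAX6 KO at replicate 1, so calls lost there are no check of pairing. Leaving out 1 library kept 630 values called, turned 2 and ended the call of the others. Both turned without PDX1 KO ISL1 OE replicate 2: COL9A1 ran from -0.93 there to 2.89 without replicate 4, and COL19A1 from -0.41 to 3.42. In all, 9 of the 36 calls held in every removal.

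Counts of called members that moved by over 1.5 times were, for ISL1 KO against WT (7), 4 by library size alone, 14 by DESeq2, 26 in the 19-library fit and 3 with the replicate block. For PAX6 KO against WT (5) they were 19 in the 19-library fit and 3 with the replicate block, and for PDX1 KO against WT (8) 19 in the 19-library fit. For PAX6 KO against ISL1 KO (2) they were 1, 6, 10 and 0 by library size alone, DESeq2, the 19-library fit and the replicate block. For PDX1 KO against ISL1 KO (4) they were 7 by DESeq2 and 20 in the 19-library fit, and for PAX6 KO against PDX1 KO (3) they were 8 and 14. For the vector in WT (0) DESeq2 gave 4 and the 19-library fit 5, in ISL1 KO (0) they gave 5 and 10 and no filter gave 1, in PAX6 KO (0) they gave 2 and 4, and in PDX1 KO (7) library size alone gave 4 and the 19-library fit 17. The cause was not tested.

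Without 1 library the counts ran from 2 to 14 for ISL1 KO, 2 to 8 for PAX6 KO and 3 to 10 for PDX1 KO against WT, from 1 to 4, 1 to 6 and 2 to 8 for PAX6 KO against ISL1 KO, PDX1 KO against ISL1 KO and PAX6 KO against PDX1 KO, from 0 to 1, 0 to 4, 0 to 2 and 3 to 13 for the vector in WT and the ISL1, PAX6 and PDX1 knockouts, and from 0 to 0 for the interaction. In ISL1 KO same-numbered libraries correlated at 0.17, 0.0992 and 0.307, each best with its own number, and the block left the vector count there at 0; WT and PDX1 KO share 1 number between vector groups and could not be blocked.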
